A study of Mus musculus with 15 samples.

Results

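Glutamate transport and metabolism was followed through 8 listed genes out of 44260 in the table: the transporters Slc1a1, Slc1a2, Slc1a3, Slc1a4 and Slc1a5, the vesicular transporters Slc17a6 and Slc17a7, and the enzyme gene Glul. They were taken by name, and all 8 were abundant enough to test. The libraries came from day 12 organoids grown out of epiblast stem cells of SpretB6 mouse lines. These are hybrid cells with a Mus spretus (Spret) and a C57BL/6J (B6) copy of each autosome. There were 3 libraries, titled C1 to C3 and called libraries 1 to 3 here, and each gave a Spret value and a B6 value per gene. The tissue label names the stem cells, whereas the growth protocol and the table's own name give organoids. No agent is named in the labels. The 12 induced pluripotent stem cell samples of 4 crosses were not analysed here. The labels do not say whether the 3 libraries come from separate cultures. The p-values below therefore speak only of these 3 libraries, and part of their variation may be technical. For each gene, limma takes most of the spread from other genes of like level (2 residual and 12.3 prior degrees of freedom).

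Glutamate is the main excitatory transmitter of the forebrain. After release it is cleared by SLC1 family transporters in the plasma membrane, turned into glutamine by glutamine synthetase in glia, and handed back to neurons, which turn it into glutamate again. Vesicular transporters of the SLC17 family then load it into synaptic vesicles. In the embryonic cortex the glial members of this cycle are already used by radial glia, the progenitors of cortical neurons.

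Of the 8 genes, 6 differed between alleles. Slc1a1 and Slc17a7 were higher from Spret, and Slc1a2, Slc1a3, Slc1a4 and Slc17a6 were lower from Spret. Slc1a5 and Glul did not pass the test. Over all 15985 tested genes, not only the autosomal ones, 30.4% passed, 7.56% higher from Spret and 22.8% lower from Spret. Among the 15259 tested autosomal genes 28.3% passed, 1181 of them higher from Spret and 3138 lower. By sign alone, 17.2% of tested autosomal genes were higher from Spret in all 3 libraries and 36.7% lower, and the share passing the test was 39.5% among the 5994 autosomal genes whose alleles summed to at least 200 on average, a level chosen after the values were seen that 7 of the 8 genes reach. The test was limma on log2(value + 1) with library and allele as terms, so that each Spret value was set against the B6 value of its own library, with Benjamini-Hochberg adjustment over all tested genes and a threshold of 0.05. Without the library term limma called 0 of the 8 genes, with 3 at an unadjusted p below 0.05, and the adjusted p of the 6 lay between 0.0536 and 0.393. Both families split: Slc1a1 stood against Slc1a2 and Slc1a3, and Slc17a7 against Slc17a6.

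The start regions of Slc1a1 and Slc1a2, and of Slc17a7 and Slc17a6, are shown because they are where RefSeq transcripts of each pair begin. They are RefSeq windows of GRCm38.p6, the assembly that mm10 names, from 250 bases before to 50 bases after the start, and hold the B6 sequence. The Spret sequence was not used here. Capitals mark a GC box (GGGCGG, or CCGCCC on the other strand) or an E-box with the letters CAGCTG, which reads the same on both strands. The Slc1a1 window is chr19:28834885-28835184 and that of Slc1a2 is chr2:102706188-102706487. That of Slc17a7 is chr7:45163671-45163970 and that of Slc17a6 is chr7:51621580-51621879, and all 4 windows are on the plus strand.
Slc1a1: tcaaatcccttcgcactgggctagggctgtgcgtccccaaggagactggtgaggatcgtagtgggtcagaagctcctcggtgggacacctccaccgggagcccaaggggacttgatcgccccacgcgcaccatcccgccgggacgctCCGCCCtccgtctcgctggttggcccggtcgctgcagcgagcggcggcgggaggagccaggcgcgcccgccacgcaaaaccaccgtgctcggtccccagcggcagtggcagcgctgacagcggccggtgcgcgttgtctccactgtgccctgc
Slc1a2: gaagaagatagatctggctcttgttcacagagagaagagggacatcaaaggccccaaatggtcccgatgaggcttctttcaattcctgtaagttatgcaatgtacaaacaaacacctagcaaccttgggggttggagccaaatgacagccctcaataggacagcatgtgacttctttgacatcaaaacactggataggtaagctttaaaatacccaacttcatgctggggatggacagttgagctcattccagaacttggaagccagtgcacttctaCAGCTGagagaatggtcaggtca
Slc17a7: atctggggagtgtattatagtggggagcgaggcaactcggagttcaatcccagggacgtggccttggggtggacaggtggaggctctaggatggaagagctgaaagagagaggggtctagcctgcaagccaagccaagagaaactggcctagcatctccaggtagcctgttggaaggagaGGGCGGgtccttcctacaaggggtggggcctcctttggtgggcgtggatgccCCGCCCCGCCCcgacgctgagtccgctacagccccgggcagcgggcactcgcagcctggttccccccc
Slc17a6: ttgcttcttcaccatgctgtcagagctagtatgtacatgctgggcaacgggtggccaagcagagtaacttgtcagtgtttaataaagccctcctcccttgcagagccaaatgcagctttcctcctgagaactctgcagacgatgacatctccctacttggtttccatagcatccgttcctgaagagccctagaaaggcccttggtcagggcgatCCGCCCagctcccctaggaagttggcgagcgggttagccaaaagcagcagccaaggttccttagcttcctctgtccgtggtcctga
A GC box occurred once in the Slc1a1 and Slc17a6 windows, 3 times in that of Slc17a7, where a pair of matches shares a base, and not in that of Slc1a2. It was found in 35.7% of all 32841 windows. The CAGCTG E-box in the Slc1a2 window was found in 16.3% of windows and in none of the other 3 shown. The CCAAT box with its 5 letters, the TATA box with the letters TATAAA and a second E-box with the letters CAGATG were also searched on both strands and were in none of these 4 windows. They were found in 37.4%, 13.6% and 17.2% of all windows. The Slc1a1 window held 32 CpG dinucleotides and was 70.3% G and C, while the Slc1a2 window held 1 CpG and was 45.7% G and C. The median over all windows was 52.7% G and C. The Slc1a3 window, which is not shown, held 3 CpG dinucleotides and was 45.3% G and C. It had 1 GC box, 3 CCAAT boxes and 1 TATA box, and neither E-box. Slc1a2 also has an annotated start farther upstream, at the beginning of its gene model (102658659). The window shown lies inside that model, and the sequence at the upstream start is not shown. Slc17a6 has 2 RefSeq windows, of which the one nearest to its GENCODE start is shown. Of the 8 genes 7 had a window. The missing one is Slc1a5.

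**Figure D1:**
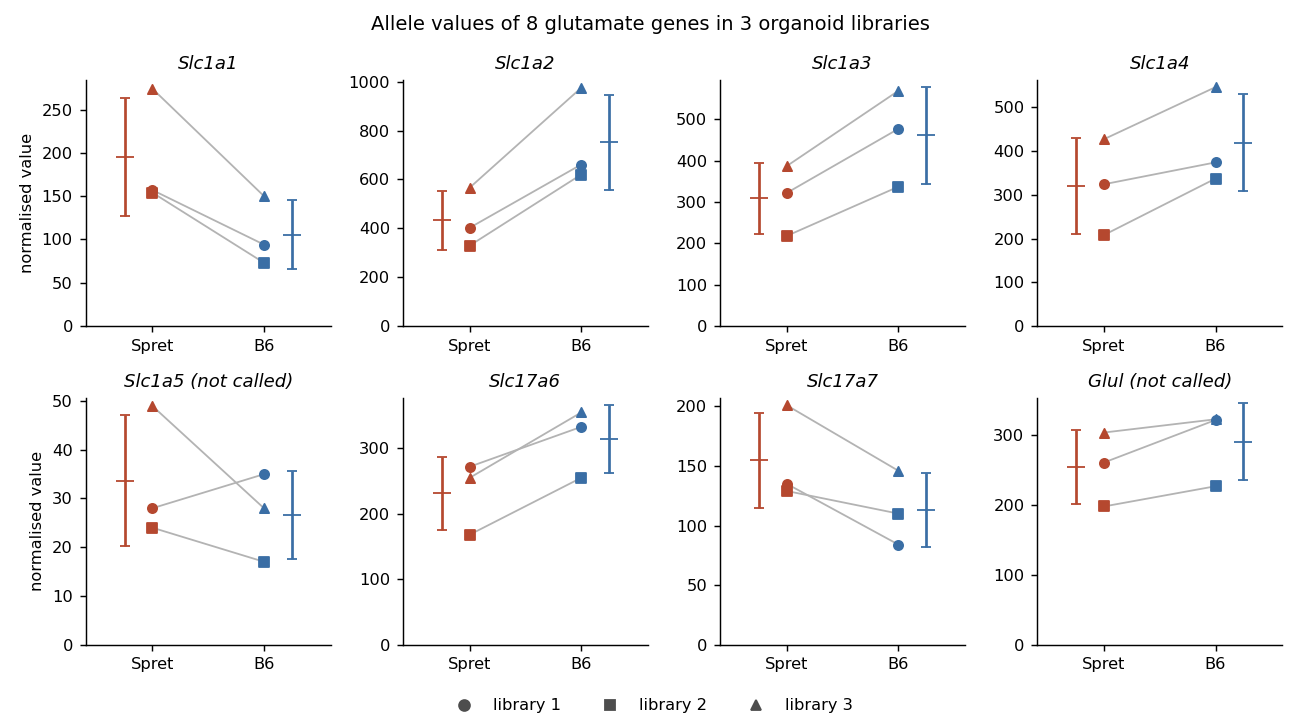
Normalised values of the Spret allele (left) and the B6 allele (right) of each gene, with a line joining the alleles of a library and bars for the mean and SD over the 3 libraries. The lines run down to B6 in all libraries for Slc1a1 and Slc17a7, up to B6 in all libraries for Slc1a2, Slc1a3, Slc1a4, Slc17a6 and Glul, and both ways for Slc1a5.

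Slc1a1 encodes the glutamate and cysteine transporter EAAT3, used mainly by neurons. In libraries 1, 2 and 3 it read 157, 154 and 274 from Spret, against 94, 73 and 150 from B6. Every Spret value lay above every B6 value, by 4 at the closest point, as it did for 6.97% of tested autosomal genes. The means were 195 ± 68.4 from Spret and 106 ± 39.8 from B6 (SD, n = 3), and the log2 ratio of Spret to B6 was 0.89 ± 0.12 (SE, limma adjusted p = 4.34e-05), a 1.85-fold difference. A higher ratio was found in 2.60% of tested autosomal genes. Slc1a1 lies on chromosome 19 (28835049 to 28913960, plus strand, mm10). Its far end is overlapped on the other strand by the coding gene 4430402I18Rik, which read 66, 54 and 89 from Spret against 50, 47 and 62 from B6. The use of strand in counting is not given, so reads in the shared stretch cannot be told apart.

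Slc1a2 encodes GLT-1, the main glutamate transporter of mature astrocytes, and had the largest summed value of the 8 genes. It read 402, 329 and 566 from Spret in libraries 1, 2 and 3, against 661, 620 and 975 from B6. The highest Spret value stayed below the lowest B6 value, as it did for 16.8% of tested autosomal genes. Its means were 432 ± 121 from Spret and 752 ± 194 from B6 (SD, n = 3). The log2 ratio was -0.80 ± 0.07 (SE, limma adjusted p = 1.88e-07), so that the B6 allele was 1.75-fold higher. Among tested autosomal genes 9.33% had a lower ratio. The gene spans 102658659 to 102790784 on chromosome 2 (plus strand), and the antisense gene Gm13872 within it read 22, 14 and 25 from Spret against 8, 13 and 41 from B6.

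Slc1a3, the glutamate transporter GLAST of radial glia and astrocytes, was lower from Spret with the most even ratio of the 8 genes. Its Spret values were 322, 218 and 387 in libraries 1, 2 and 3, against B6 values of 477, 337 and 569. The values of the alleles overlapped across libraries, since the Spret value of library 3 exceeded the B6 value of library 2, but within each library Spret was lower. The ratios of the 3 libraries were -0.57, -0.63 and -0.55, with an SD of 0.04. Fitted over the table the log2 ratio was -0.58 ± 0.07 (SE, limma adjusted p = 2.48e-05). The gene lies on chromosome 15 (8634124 to 8710764, minus strand). Gm37310, annotated within it on the same strand, read 5, 17 and 12 from Spret against 17, 27 and 30 from B6.

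Set against each other within a library, the uptake transporters differed in allelic ratio in every library. The ratio of Slc1a1 exceeded that of Slc1a2 by 1.45, 1.98 and 1.65 log2 units in libraries 1, 2 and 3, and that of Slc1a3 by 1.30, 1.69 and 1.42. Slc1a2 was in turn 0.15, 0.29 and 0.23 below Slc1a3. With 3 libraries an exact two-sided sign-flip test cannot go below p = 0.25, which was the value for each of these 3 pairs.

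The other SLC1 members carry neutral amino acids and not glutamate as their main load. Slc1a4, which encodes ASCT1, an exchanger of serine, alanine and cysteine, read 324, 208 and 427 from Spret against 374, 337 and 546 from B6. Spret was lower in 3 of 3 libraries, although the alleles overlapped across libraries. Its log2 ratios ran from -0.69 in library 2 to -0.21 in library 1, with a fitted value of -0.42 ± 0.09 (SE, limma adjusted p = 0.00304), or 1.34-fold higher from B6. The call ended with no filter on low values (limma adjusted p = 0.181) and without limma's intensity trend (0.133). Without library 2 the ratio was -0.28 and still passed (limma adjusted p = 0.0338), close to the threshold. Slc1a4 lies on chromosome 11 (20302180 to 20332713, minus strand).

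Slc1a5 encodes ASCT2, an exchanger that imports glutamine into dividing cells. It was the lowest of the 8 genes, with 28, 24 and 49 from Spret against 35, 17 and 28 from B6. Spret was lower in library 1 and higher in libraries 2 and 3, with ratios of -0.31, 0.47 and 0.79. The fitted log2 ratio was 0.32 ± 0.28 (SE, limma adjusted p = 0.419). The ratio of Slc1a5 minus that of Slc1a4 was -0.11, 1.17 and 1.14 in libraries 1, 2 and 3 (exact two-sided sign-flip p = 0.5). About 19 Spret and 13 B6 reads stand behind the values of library 2, by the scale factor estimated for that library. The SE of Slc1a5 was the largest of the 8 genes, and the limma adjusted p above the threshold does not show that its alleles are equal. The gene lies on chromosome 7 (16781340 to 16798274, plus strand).

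**Figure D2:**
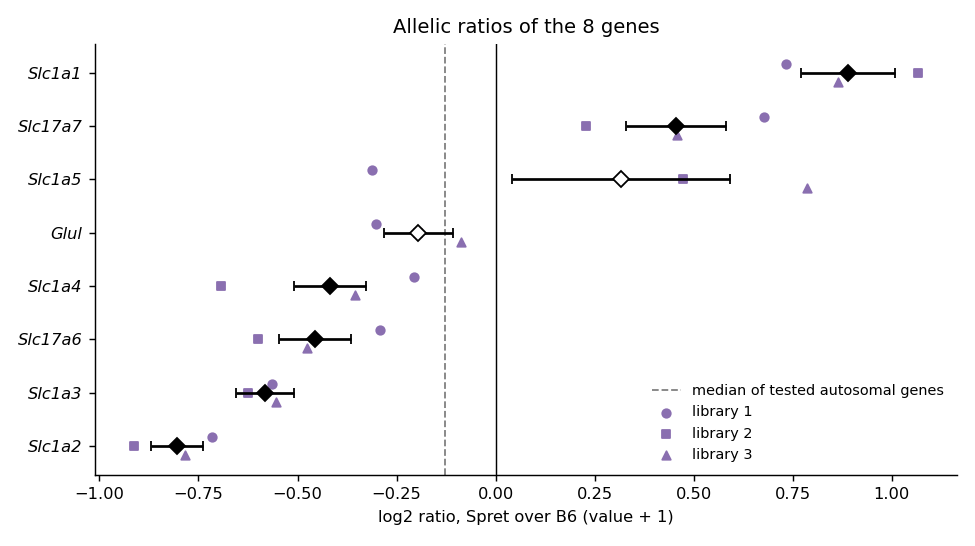
Log2 ratio of Spret to B6 for each gene: diamonds are the fitted ratio with its SE (filled where limma's adjusted p was below 0.05), small points the 3 libraries, and the dashed line the median of tested autosomal genes at -0.13. Slc1a1 and Slc17a7 lie right of 0 in all libraries, and the 4 genes at the bottom lie left of the dashed line in all libraries.

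The vesicular transporters also leaned opposite ways. Slc17a7 encodes VGLUT1, the transporter that mature cortical excitatory neurons mostly use. It read 135, 129 and 201 from Spret in libraries 1, 2 and 3, against 84, 110 and 146 from B6. Spret was higher in each library, while the values overlapped across libraries. The log2 ratio was 0.45 ± 0.13 (SE, limma adjusted p = 0.0137), 1.37-fold higher from Spret. This call was the least firm of the 6. Without library 1 the ratio was 0.34 (limma adjusted p = 0.142) and without library 3 it was 0.45 (0.0951). It also ended with no filter (0.163) and without the trend (0.105).

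Slc17a6 encodes VGLUT2, which is widespread in early and subcortical excitatory neurons. Its values were 272, 168 and 255 from Spret against 333, 255 and 355 from B6. Spret was lower in 3 of 3 libraries, and the alleles overlapped across libraries because both were low in library 2. The log2 ratio was -0.46 ± 0.09 (SE, limma adjusted p = 0.00144), with B6 1.37-fold higher. The call ended with no filter (limma adjusted p = 0.103) and without the trend (0.0824). The ratio of Slc17a7 exceeded that of Slc17a6 by 0.97, 0.83 and 0.93 in libraries 1, 2 and 3, a mean of 0.91 ± 0.07 (SD, n = 3, exact two-sided sign-flip p = 0.25, the smallest possible). Both genes lie on the plus strand of chromosome 7, Slc17a7 at 45163949 to 45176142 and Slc17a6 at 51622006 to 51671119.

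Glul, glutamine synthetase, makes glutamine from glutamate and ammonia and is a glial enzyme in the brain. It read 261, 198 and 304 from Spret, against 322, 227 and 323 from B6. Spret was lower in each library by a small amount, with ratios of -0.30, -0.20 and -0.09. The fitted log2 ratio of -0.20 ± 0.09 (SE) did not pass (limma adjusted p = 0.104) and lay near the autosomal median of -0.13. Glul lies on chromosome 1 (153899944 to 153909723, plus strand). Its start is overlapped by the microRNA gene Mir8114 on the same strand and by Teddm2 on the other. These were far lower, with Mir8114 at 7, 3 and 11 from Spret against 20, 9 and 25 from B6, and Teddm2 at 20, 26 and 43 against 44, 32 and 58.

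Genes around Glul mostly read lower from Spret. A gene was counted as near where any part of it lay within 500 kb of either end of the gene described, and the counts that follow are of genes called by limma. Of 11 tested genes near Glul, 1 was called higher from Spret and 7 lower, with a median log2 ratio of -0.99. The 7 called lower included the long calcium channel gene Cacna1e at -0.97. They also included Gm28512, Gm38352 and Mir8114, whose summed values lay close to the limit for testing. Mir8114 also overlaps Glul itself on the same strand. For comparison, 7.56% of all tested genes, not only the autosomal ones, were called higher from Spret and 22.8% lower. The autosomal median was -0.13. Within the same distance the median was -0.31 around Slc1a1 (8 genes, 1 called higher from Spret and 2 lower) and -0.30 around Slc1a2 (7 genes, none called higher and 2 called lower). It was -0.13 around Slc1a3 (7 genes, 3 called lower), -0.20 around Slc1a4 (7 genes, 2 called lower), -0.12 around Slc1a5 (21 genes, 3 called higher and 5 lower) and -0.12 around Slc17a7 (65 genes, 6 called higher and 9 lower). Slc17a6 had 5 tested neighbours with a median of -0.54, of which 1 was called lower from Spret. Of the 3 called lower near Slc1a3, Gm37310 lies within that gene on the same strand. The windows themselves are a description, and no test was made of a window.

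**Figure D3:**
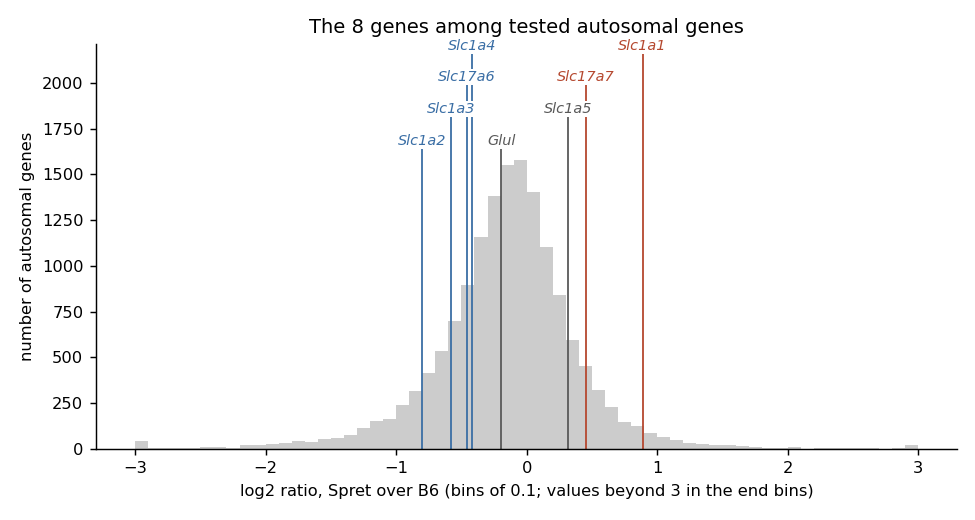
Histogram of the fitted log2 ratios (Spret over B6) of 15259 tested autosomal genes, with the 8 genes marked in red where called higher from Spret, blue where called lower and grey where not called. The middle 50% of genes lie between -0.41 and 0.13, and Slc1a1 at 0.89 is above the 95% quantile of 0.65.

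Each of the 6 called ratios was larger in size than the general lean of the table. The autosomal median of -0.13 means that most genes read slightly lower from Spret, and how reads were assigned to alleles is not given. Centring on the autosomal median moves the fitted ratio of every gene by the same amount, less than any of the 8 ratios in size. The 8 genes kept their signs, which could therefore not have changed. When each library was centred in this way the 6 called genes passed again, 2 higher from Spret and 4 lower. The log2 ratio was then 1.01 for Slc1a1, -0.68 for Slc1a2, -0.46 for Slc1a3, -0.29 for Slc1a4, -0.33 for Slc17a6, 0.58 for Slc17a7, 0.44 for Slc1a5 and -0.07 for Glul. Over tested autosomal genes the share passing was then 13.2% higher from Spret and 13.4% lower. X-linked values came from Spret at 0.0930% ± 0.00747 and Y-linked values at 99.5% ± 0.280 (SD, n = 3), so in these cells Spret autosomes would be paternal. For the 8 autosomal genes a difference of strain and one of parent cannot be told apart.

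Levels were compared between genes as the sum of both alleles, per 1000000 of the table's total and per kb of annotated exon. By its name the table holds allele-specific reads, so a gene with few sequence differences between strains may read low on this scale. Slc1a4 and Glul were highest, at 36.6 ± 6.55 and 32.2 ± 3.35 (SD, n = 3), and their libraries overlapped. Slc17a6 followed at 19.9 ± 2.42, with Slc1a2 at 17.6 ± 2.69 and Slc1a3 at 17.6 ± 2.79, 3 genes whose ranges also overlapped. Slc17a7 at 9.75 ± 1.65 and Slc1a1 at 7.07 ± 1.73 overlapped each other and lay below that group. Slc1a5 was lowest at 2.81 ± 0.56, below every other gene in every library.

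**Figure D4:**
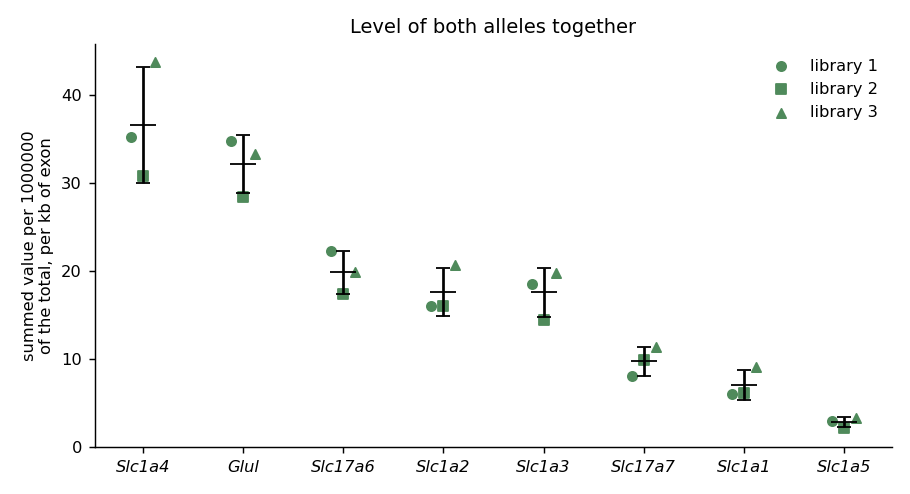
Summed value of both alleles per 1000000 of the table's total and per kb of exon, by gene, with the 3 libraries as points and bars for the mean and SD. The genes fall into steps, from Slc1a4 and Glul above 28 in each library down to Slc1a5 below 4.

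Between libraries the levels moved less than the markers of some cell types. Per 1000000 of the table's total, Slc1a2 stood at 211, 211 and 272 in libraries 1, 2 and 3, and Slc1a1 at 49.8, 50.4 and 74.8, both highest in library 3. Slc17a6 was highest in library 1, at 120, 93.9 and 108, and Glul stood at 116, 94.4 and 111. On the same scale the summed markers of radial glia and forebrain progenitors (10 genes) read 1360, 1301 and 1111, and those of neurons (7 genes) 4687, 5169 and 4320. Among the neuron markers Neurod6 was lowest in library 3 (939, 1082 and 561) and Tbr1 highest there (48.6, 52.0 and 89.6). Map2, the largest of them, read 1731, 1786 and 1745. Choroid plexus markers (5 genes) read 577, 149 and 74.3, and Cajal-Retzius markers (5 genes) 353, 233 and 217. Ttr made up most of the choroid plexus sum (507, 119 and 57.0) and Reln most of the Cajal-Retzius sum (299, 189 and 167). Among the other Cajal-Retzius markers Trp73 also fell, Lhx1 was lowest in library 2, Lhx5 was highest in library 3 and Calb2 rose. The 6 astrocyte markers summed to 144, 169 and 124. The 6 markers of GABA neurons (55.2, 47.3 and 50.6) and the 5 of the oligodendrocyte lineage (48.6, 42.0 and 47.6) were low, as were those of microglia, endothelium and pluripotency, at 6.53 to 32.0. No marker was at 0 in all libraries. The part of cell makeup in the levels of the 8 genes was not tested, and in bulk samples fewer cells of a type and less RNA per cell cannot be told apart. Both alleles of a gene were read from the same cells of a library.

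Around the 8 genes, 39 other genes of glutamate and glutamine use were examined, of which 36 were tested and 3 (Slc1a6, Slc1a7 and Slc38a5) fell below the limit. Of the 36, 3 were higher from Spret and 9 lower, 12 in all, and the median log2 ratio was -0.11. None of the 36 is X-linked, and over tested autosomal genes 28.3% passed, with the median of -0.13 given above. Of those 15259 genes 1181 were higher from Spret and 3138 lower, so the list lay near the share of all genes in each direction. With centred ratios 5 of the 36 were higher and 4 lower.

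Called enzymes that make or use glutamate lay in both directions, as called genes did over the whole table. Got1, the cytosolic aspartate aminotransferase, read 183, 177 and 344 from Spret against 102, 66 and 130 from B6. All Spret values exceeded all B6 values, and the log2 ratio of 1.21 ± 0.13 (SE, limma adjusted p = 4.26e-06) was larger than that of any of the 8 genes. Got2, the mitochondrial form of the same enzyme, read 118, 79 and 103 from Spret against 157, 191 and 175 from B6, a ratio of -0.81 ± 0.15. The CTP synthetase gene Ctps, which uses glutamine to make a nucleotide, was higher from Spret at 0.55 ± 0.13. Its fellow glutamine user Gmps, the GMP synthetase, was lower at -0.46 ± 0.12.

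Carriers and further enzymes of the list also went both ways. Slc25a22, a mitochondrial glutamate carrier, was higher from Spret at 0.34 ± 0.11. Slc38a2, a glutamine carrier of the plasma membrane, was lower at -0.46 ± 0.07, with 385, 283 and 410 from Spret against 543, 369 and 584 from B6. Its relative Slc38a1 read 702, 560 and 705 from Spret against 630, 600 and 746 from B6 and was not called, with a ratio of -0.01 ± 0.07. Gclm, a subunit of the enzyme that starts glutathione synthesis, Psat1 of serine synthesis, the glutamate dehydrogenase gene Glud1 and the vesicular transporter gene Slc17a8 (VGLUT3) were lower from Spret at -0.44, -0.35, -0.31 and -0.93. The 9 genes lower from Spret also include Slc38a3, the least abundant of them, at -0.84. None of these 5 passed with centred ratios (limma adjusted p from 0.0749 to 0.226). Psat1, Glud1, Slc17a8 and Slc38a3 also did not pass with any of the 3 libraries left out (0.0756 to 0.308), nor did Gclm without library 1 (0.167) or library 3 (0.153). Without library 3 the ratio of Slc17a8 was -0.54. The list had 5 called genes without library 1, 9 without library 2 and 5 without library 3. Got1, Got2 and Slc38a2 passed in each of these fits, while Ctps did not without library 1 (limma adjusted p = 0.0549), Slc25a22 not without library 1 (0.189) or library 3 (0.154), and Gmps not without library 2 (0.052) or library 3 (0.0909). With no filter on low values 1 gene of the list passed, Slc38a2, and Got1 did not (limma adjusted p = 0.0586).

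**Figure D5:**
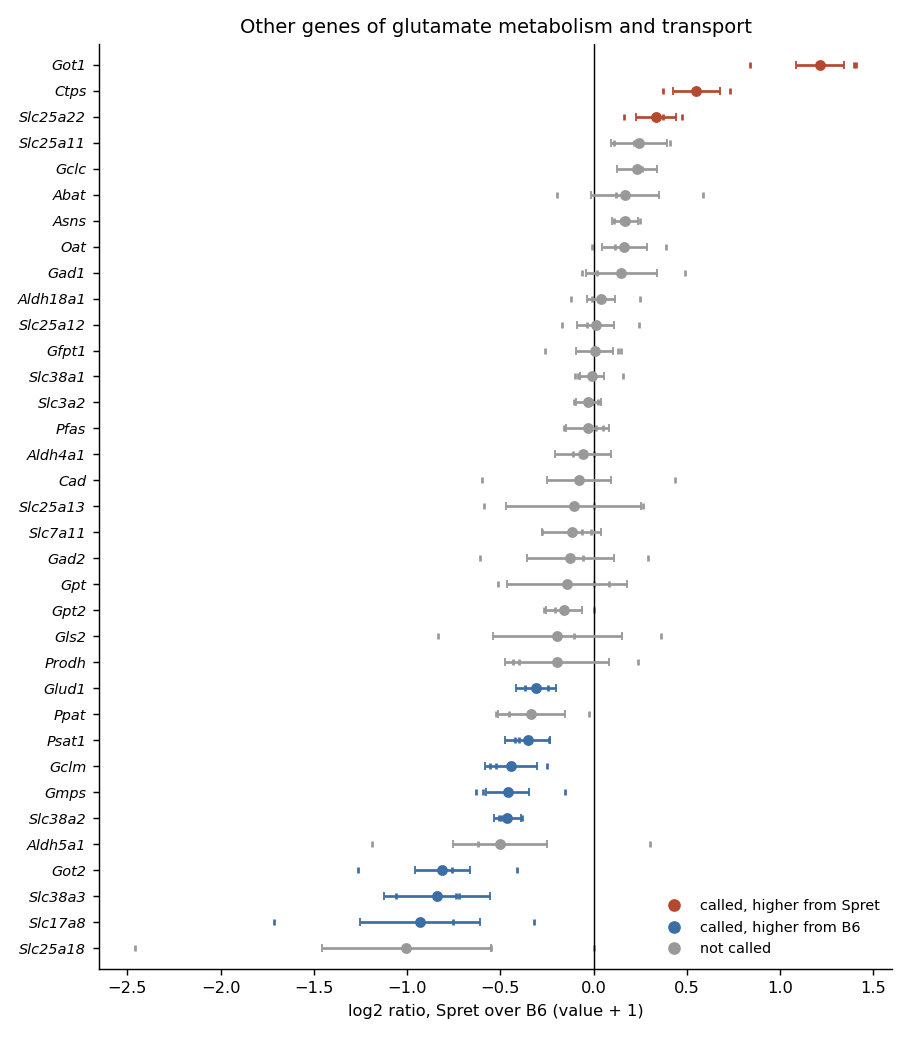
Fitted log2 ratios (Spret over B6) with their SE for 35 of the 36 tested genes of the wider list, with ticks for the 3 libraries; red marks genes called higher from Spret, blue called lower and grey not called. Got1 at 1.21 is farthest right, and Slc25a18, which was not called, is farthest left.

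Genes whose ratios over the 3 libraries came nearest to Slc1a1, out of 8842 autosomal candidates, were Tmem223, Ralb and Cfap298, at Euclidean distances of 0.08, 0.09 and 0.14 log2 units. Those nearest to Slc1a2 were Ece2, Rab3b and Fam8a1, at 0.04, 0.06 and 0.07. The likeness is over 3 values and is a description only.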

How the data were processed

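Ribosomal RNA was removed before the 3 organoid libraries were made, and a depth of 80M reads each was aimed for, per the labels' protocols. Values are a score: the authors deposited allele-specific read numbers per gene, normalised and rounded to whole numbers, per the name of their table. Per the submitters' processing notes, mm10 was the genome build. Aligner, allele assignment, counter and strand use are not given in the sources used here. Totals in libraries 1, 2 and 3 were 2337998, 2088788 and 2639912 for Spret and 2701847, 2413876 and 3027078 for B6. How often each whole number occurred gave estimated factors of 1.156, 1.276 and 0.672. These correspond to about 2.02M, 1.64M and 3.93M Spret reads and 2.34M, 1.89M and 4.50M B6 reads. A factor below 1 merges read numbers, so no count test was used. Values of one allele differed between libraries by 2.25 to 5.95 chi-square per gene, more than counting noise.

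Ratios were taken on the scale of log2(value + 1), Spret minus B6, where low genes show too small a difference. The test used limma 3.58.1 (R 4.3.3) on genes whose 6 columns averaged at least 10. Its model had terms for library and for allele, with the variance following the mean level (2 residual and 12.3 prior degrees of freedom). The pairing comes from the material: both alleles of a library are from the same RNA, and their deviations correlated across genes at r = 0.20, 0.43 and 0.54 in libraries 1, 2 and 3. Positions and exon lengths are from GENCODE M21 (GRCm38), which placed 42620 genes. All 8 members are named. Of the wider list, called genes were named by summed value, up to 8 per direction, with the most abundant uncalled gene; 1 called gene of that list is counted but not reported here by name. Slc38a3, Got1's comparison with the 8 genes, the neighbours named, the single neuron markers named and Slc25a18 were singled out after their values were seen. Members and lists were chosen with earlier results of these data known. Alternatives were centred ratios, pseudocounts of 0.5 and 5, no filter and a filter of 50, no trend, no library term, and each library left out.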

Additional observations from a re-analysis of the deposited data

How the results depend on the processing

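Every one of the 8 genes kept its direction under each of the 10 alternatives (9 for Slc1a5, which a mean of at least 50 removes). The ratio is the same by construction with another filter, without the trend or without the library term, and centring could not change these signs. Without the library term (no replicate block) limma called 0 of the 8 genes, 3 at an unadjusted p below 0.05. The ratios stayed at 0.89, -0.80, -0.58, -0.42, -0.46 and 0.45 for Slc1a1, Slc1a2, Slc1a3, Slc1a4, Slc17a6 and Slc17a7, with adjusted p from 0.0536 to 0.393. That fit sets the spread between libraries against the allelic difference. With no filter, and also without the trend, 3 were called, Slc1a1, Slc1a2 and Slc1a3, and the calls of Slc1a4 (-0.42), Slc17a6 (-0.46) and Slc17a7 (0.45) ended. The cause was not tested. Leaving out each library in turn gave ratios from 0.34 to 0.57 for Slc17a7, 5 to 6 calls among the 8 genes, 5 to 9 in the wider list and 2667 to 4083 over all genes. With no filter, without the library term and without the trend, the calls over all genes were 1236, 1537 and 2229, against 4852, and those in the wider list 1, 2 and 2, against 12. Slc1a5 had the fewest reads of the 8 genes, and library 2 the fewest of the libraries.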
